A study of Mus musculus with 4 samples.

Results

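Imprinted genes are the few mammalian genes read mainly from the copy of one parent, some of them only in certain tissues. Here 10 of them were followed in area CA1 of the mouse hippocampus: Nnat, Peg3, Ndn, Snrpn, Mest, Gnas, Impact, Igf2r, Grb10 and Cdkn1c. Probe sets were taken when the platform annotation gave one of these symbols, which returned 16 of the 12488 probe sets and 9 of the 10 genes. No probe set of Snrpn was named in that annotation, so Snrpn is not analysed here. The genes were chosen by symbol with their signals on these arrays known, in particular the high signal of Nnat at 2 h, so that difference is described and not tested.

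The study measured total RNA from CA1 on 4 Affymetrix arrays, 1 for each of 4 control samples. All 4 samples came from young male C57BL/6J mice that an experimenter had handled and that received no other treatment. They differ in the time at which RNA was taken, 1, 2, 4 or 6 h after other mice, not analysed here, had their final shock. With 1 array per hour, differences between hours have no replicate check, and the number of mice behind each sample is unknown. The values are the authors' scaled signal intensities, which can be compared between arrays for 1 probe set but not between probe sets. The CA1 marker Wfs1 had a signal of 2290.5 ± 292 (SD, n = 4). Markers of neighbouring hippocampal fields were not all absent. Of 3 measured markers of dentate granule cells, Trpc6 was under the floor of 36.8 on all arrays and Prox1 on 3, but Dsp had 133, 90.5, 168 and 196 at 1, 2, 4 and 6 h, and Bok, the 1 measured marker of CA3, averaged 894 ± 117 (SD, n = 4).

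In imprinting, methyl groups placed on DNA in the egg or the sperm mark a control region, and the marked and unmarked copies are then read differently for life. Many imprinted genes act on growth before birth, and a number of them stay active in neurons. In mice, Nnat, Peg3, Ndn, Snrpn, Mest and Impact are read from the paternal copy. In many tissues Igf2r and Cdkn1c are read mainly from the maternal copy, which need not hold for Igf2r in neurons. Grb10 is read from one or the other depending on the tissue, and Gnas is a complex locus with maternal, paternal and biparental transcripts. An array adds the RNA of both copies, so imprinting itself was not measured.

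The promoters of 3 of these genes are shown for their CpG sites, the dinucleotides that carry the methyl marks. Sequences are from RefSeq, build GRCm38.p6, from 250 bases before to 50 after the transcription start, 5′ to 3′ on the gene's strand, with every CpG in capitals. Nnat is given because it carried the high 2 h value, and Ndn and Peg3 because they are also read from the paternal copy and were measured on several probe sets each. The windows are chr2:157559828-157560127 on the plus strand for Nnat, chr7:62348027-62348326 on the plus strand for Ndn and chr7:6730370-6730669 on the minus strand for Peg3.
Nnat: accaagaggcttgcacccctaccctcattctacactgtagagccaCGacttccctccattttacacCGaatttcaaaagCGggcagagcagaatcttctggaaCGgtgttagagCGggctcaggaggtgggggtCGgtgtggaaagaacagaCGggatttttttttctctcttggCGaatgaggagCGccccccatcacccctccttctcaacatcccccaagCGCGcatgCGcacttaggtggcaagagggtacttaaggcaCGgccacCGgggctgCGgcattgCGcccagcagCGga
Ndn: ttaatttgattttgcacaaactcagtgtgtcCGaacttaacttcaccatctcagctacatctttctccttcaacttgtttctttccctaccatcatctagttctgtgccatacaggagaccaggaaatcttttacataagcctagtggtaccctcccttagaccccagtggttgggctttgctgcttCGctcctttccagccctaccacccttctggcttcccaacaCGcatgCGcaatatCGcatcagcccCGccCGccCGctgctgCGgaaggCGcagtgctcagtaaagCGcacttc
Peg3: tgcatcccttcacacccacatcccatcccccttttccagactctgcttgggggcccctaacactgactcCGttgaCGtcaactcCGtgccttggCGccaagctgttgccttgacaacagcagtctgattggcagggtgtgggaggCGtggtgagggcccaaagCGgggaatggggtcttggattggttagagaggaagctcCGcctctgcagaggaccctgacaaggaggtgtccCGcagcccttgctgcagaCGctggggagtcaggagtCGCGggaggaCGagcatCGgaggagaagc
These 3 windows held 17 CpG sites in Nnat, 11 in Ndn and 13 in Peg3, against a median of 7 over all 32851 promoters of the table. The table listed 17 promoters for 8 of the 10 genes. Some windows of Gnas and of Mest overlap, so these 17 are not independent and their share is only a description. Of these, 9 promoters, belonging to 6 genes, had a CpG content of at least 0.6 times that expected from their bases and at least 50% G and C, which 33.47% of all promoters had. The remaining windows, among them that of Peg3 and the 4 of Snrpn, did not reach both limits.

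Expression was found for 6 of the 9 measured genes. A probe set is called expressed here if its signal was at or above 116.4, the 40th percentile of all values, on all 4 arrays, and 9 of the 16 probe sets met this, against 50.1% of all 12422 probe sets that are not controls. The 6 genes were Nnat, Peg3, Ndn, Gnas, Impact and Igf2r. Mest reached that level on 2 arrays, Grb10 on 2 with its brightest probe set and Cdkn1c on 1.

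**Figure D1:**
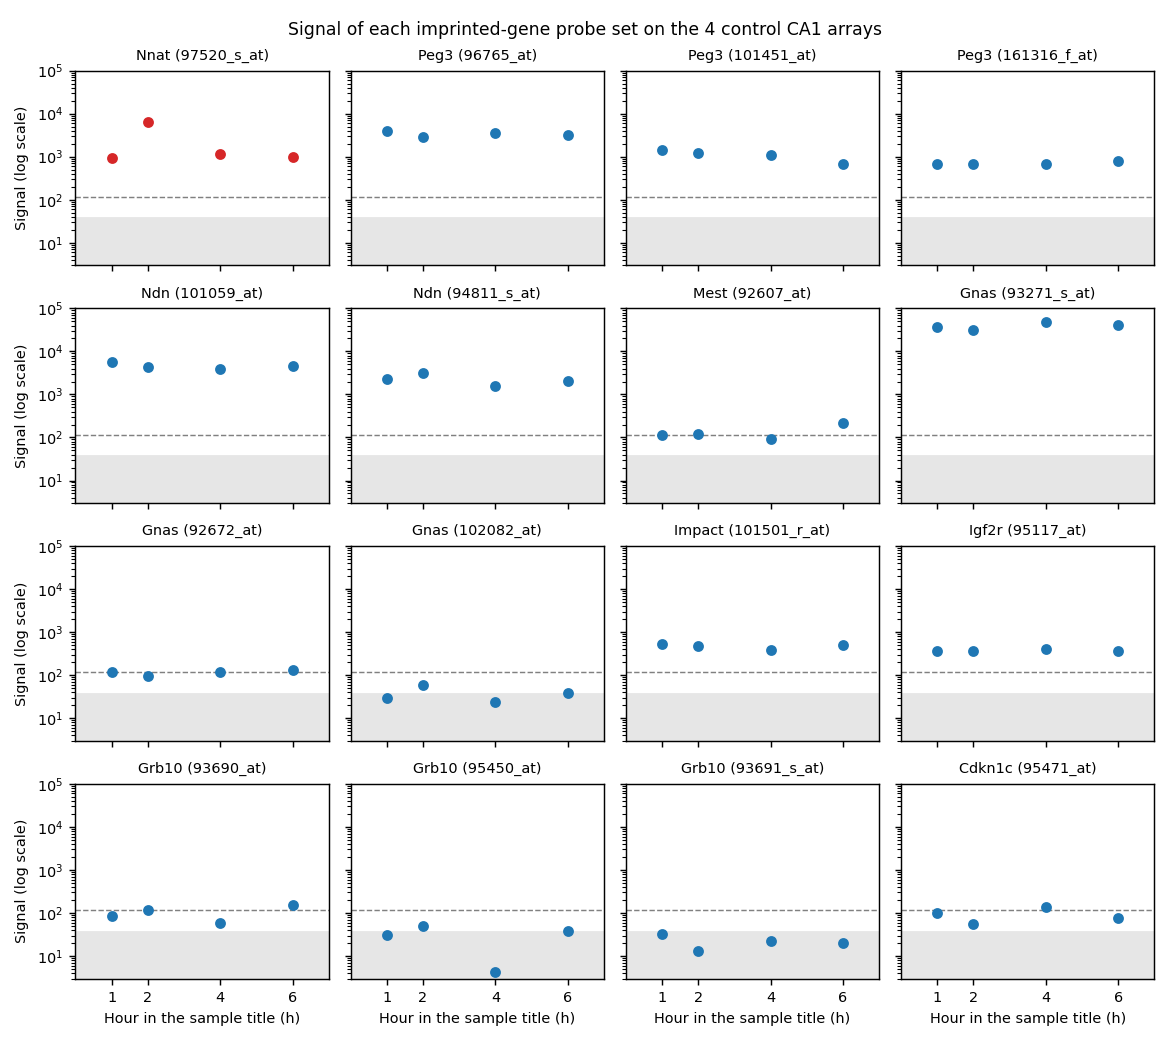
Signal (log scale) against the hour in the sample title for all 16 probe sets, 1 point per array. The dashed line is the signal of 116.4 and the grey band lies under the floor of 36.8. Nnat, in red, stands at 6529 at 2 h and between 931 and 1180 on the other arrays.

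Nnat encodes neuronatin, a small membrane protein of the endoplasmic reticulum that is abundant in developing and neuroendocrine cells and bears on calcium handling. Its probe set had signals of 6529 at 2 h, against 931, 1180 and 980 at 1, 4 and 6 h. This put the 2 h array 7.01-fold above the 1 h array, 5.53-fold above the 4 h array and 6.67-fold above the 6 h array, a log2 difference of 2.67 from the mean of the other 3. Those 3 stayed within 1.27-fold of each other, with a mean of 1030 ± 132 (SD, n = 3). Of 7237 tested probe sets, those with a mean at or above 116.4, 0.152% lay at least as far above the other arrays at 2 h, and Nnat ranked number 11. It was the only 1 of the 10 tested member probe sets at least 2-fold above each other array, against 2.06%. Nnat has 1 named probe set on this array, so the value could not be checked on a second one, and the ending of its name marks probes that several transcripts share. In bulk RNA of this kind, a change in the number of cells of a type and a change in RNA per cell cannot be told apart.

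None of the other members shared the high 2 h value. Of the other 9 tested probe sets, none was at least 2-fold higher at 2 h than the mean of the other arrays, against 4.59% of all tested probe sets, and none was at least 2-fold lower, against 2.5%. Their log2 differences ran between -0.37 for Gnas and 0.72 for the dimmer probe set of Ndn, the only one of the 9 at least 1.5-fold higher, against 12.5%. Shares that low give few probe sets past 2-fold in a group of 9, so these counts do not set the group apart. On the brightest tested probe set of each gene, 1 of the other 6 genes was higher at 2 h and 5 were lower, against 48.2% of all genes higher, with a median log2 difference of -0.10 over all 7 tested genes including Nnat, beside -0.02 over 5546 genes.

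**Figure D2:**
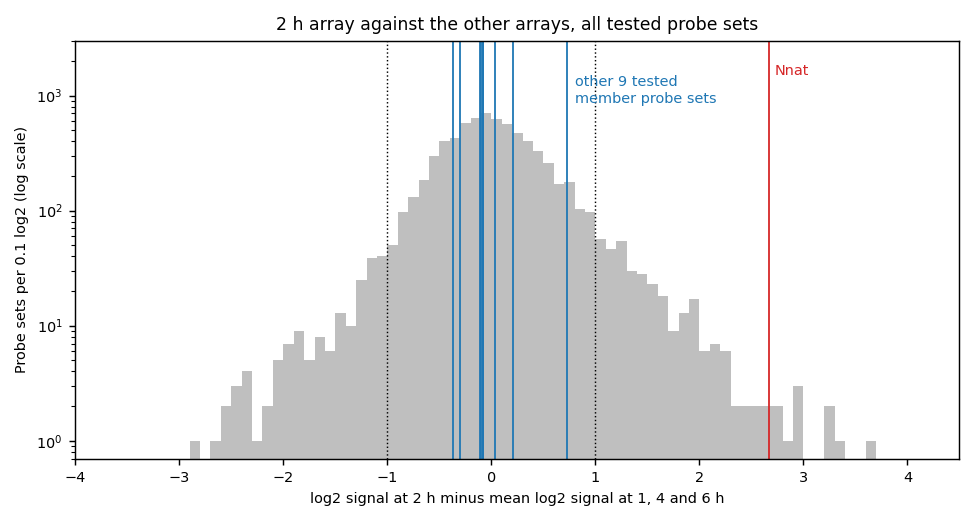
Number of probe sets (log scale) by their log2 signal at 2 h minus the mean log2 signal at 1, 4 and 6 h, over all 7237 tested probe sets. Vertical lines mark the member probe sets, dotted lines 2-fold. Nnat lies at 2.67 and the other 9 between -0.37 and 0.72.

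Ndn encodes necdin, a growth suppressor of the MAGE family found in neurons that have stopped dividing, and its 2 probe sets disagreed at 2 h. The brighter had 4428 at 2 h, against 5776, 3985 and 4654 at 1, 4 and 6 h, so the 2 h value lay among the others. The dimmer had 3227 at 2 h, against 2300, 1608 and 2020, above each of the other 3. Its name has the same ending as that of Nnat, which marks probes that several transcripts share. The log2 differences of the brighter and the dimmer probe set from the mean of the other arrays were -0.10 and 0.72. Over the 4 arrays the brighter averaged 4711 ± 763 and the dimmer 2289 ± 687 (SD, n = 4 each). Against the 4 h array alone the dimmer was 2.01-fold higher at 2 h.

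Peg3, a zinc finger protein known for its part in growth and maternal behaviour in mice, was measured by 3 probe sets, which also differed. The brightest had 3863, 2882, 3621 and 3198 at 1, 2, 4 and 6 h, with 2 h the lowest. The middle one had 1469, 1208, 1120 and 688, each below the one before. The dimmest had 662, 671, 664 and 809.5, with 6 h the highest. Highest over lowest signal was 1.34, 2.14 and 1.22 for these 3 probe sets, so the spread of the middle one was not repeated on either of the others.

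Gnas encodes the stimulatory G protein alpha subunit that links receptors to adenylyl cyclase, and several transcripts share the probes of its bright probe set. It had 32170 at 2 h, against 37227, 47155 and 40825 at 1, 4 and 6 h, so 2 h was lowest. A second probe set had 94.1 at 2 h, against 117, 120 and 135, again the lowest. Its mean of 115.7 on the log scale lay just under the limit for testing. The third was at 58.3 at 2 h, against 28.9, 23.8 and 39.1, with 2 arrays under the floor. No source used here gives which transcripts of the locus each probe set reads.

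Impact and Igf2r were the steadiest of the genes with 1 probe set. Impact, an inhibitor of the stress kinase Gcn2 that is abundant in neurons, had 489 at 2 h, against 538, 396 and 506.5 at 1, 4 and 6 h. Igf2r, the receptor that clears the growth factor IGF2 and carries lysosomal enzymes, had 358 at 2 h, against 361.5, 412 and 363. Its coefficient of variation over the 4 arrays was 6.89%, and its highest signal was 1.15 times its lowest. The 2 h value lay inside the range of the other arrays for Impact and just under it for Igf2r.

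Mest, a hydrolase-like protein of fetal growth, was the dimmest tested member, with 122 at 2 h, against 115, 89.9 and 222 at 1, 4 and 6 h. Its 6 h array stood highest and its 2 h array lay among the others. Grb10, an adaptor that dampens insulin and IGF receptor signalling, had 117 at 2 h, against 84.7, 59.4 and 151, on its brightest probe set. Its other 2 probe sets reached no more than 50.7 and 33.3 on any array, and the dimmer was under the floor on all 4. Cdkn1c, an inhibitor of cyclin-dependent kinases that halts the cell cycle in development, had 54.8 at 2 h, against 98.8, 137 and 78.5. Its 2 h value was the lowest and within 2-fold of the floor. Grb10 and Cdkn1c were not tested, since no probe set of theirs had a mean at or above 116.4.

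The tested members ranged between 1.15-fold (Igf2r) and 7.01-fold (Nnat) over the 4 arrays. Of the 10 tested probe sets, 6 kept highest over lowest signal under 1.5, against 46.4% of all tested probe sets, and the same number kept it under 2, against 77.4%. The median ratio was 1.45 over the 9 tested probe sets other than Nnat, beside 1.54 over all tested probe sets. The 4 that ranged over 2-fold were those of Nnat, Mest, the dimmer one of Ndn and the middle one of Peg3. The 2 h array gave the highest signal in 2 of the 10 and the lowest in 3, against 29.1% and 32.0% of all tested probe sets.

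For a trend over the hours, limma fitted a line to log2 signal against hour on all 7237 tested probe sets, with 2 residual degrees of freedom. None of the 10 member probe sets passed a Benjamini-Hochberg adjusted p of 0.05, against 0.0% of all tested probe sets. At an unadjusted p under 0.05 there was 1 member, against 2.71%. It was the middle probe set of Peg3, whose slope was -0.20 log2 per hour with a standard error of 0.06. Its limma adjusted p was 0.9996, from an unadjusted limma p of 0.0113. The other probe sets of Peg3 had slopes of -0.02 and 0.05. Nnat had a slope of -0.21 ± 0.22, which became 0.023 without the 2 h array. A straight line over the hours cannot judge a high value at 2 h alone.

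The 5 genes whose 4-array profile lay nearest to that of Nnat were on neither list of imprinted genes. Apart from Nnat, those lists had only 9 and 20 of the 7237 tested probe sets, so their absence here says nothing about imprinting. Nearness was the root mean square difference of log2 signals centred on their mean, over 4 arrays and the 6497 tested probe sets with 1 gene symbol and no value under the floor, and with 4 points it is a description only. The nearest was Zfp358, a zinc finger gene, at 0.088, with 464.5 at 2 h, against 62.8, 93.9 and 69.2 at 1, 4 and 6 h. Norad, a noncoding RNA that binds Pumilio proteins, followed at 0.18, with 3106 at 2 h, against 490, 449 and 407.5. Then came Ensa, an inhibitor of a protein phosphatase, at 0.197, Cttn, the actin-binding protein cortactin, at 0.207, and Atp6v0a1, a subunit of the vesicle proton pump, at 0.246. Zfp358, Ensa and Cttn averaged only 75.3, 95.1 and 85.9 over the other 3 arrays, so they passed the limit of 116.4 for testing through their 2 h value alone.

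Second probe sets were present for 3 of these 5 genes, and the 2 that could be tested did not repeat the high 2 h value. The second probe set of Norad had 12592 at 2 h, against 17670, 18879 and 14974, and that of Cttn had 2191, against 2594, 2862 and 2831. That of Atp6v0a1 was too dim to test, with 14.7 at 2 h, against 18.2, 50.6 and 50.9. Among the members, the dimmer probe set of Ndn came nearest to Nnat, at 0.899 and rank 557, and the remaining 8 held ranks between 2584 and 5037.

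**Figure D3:**
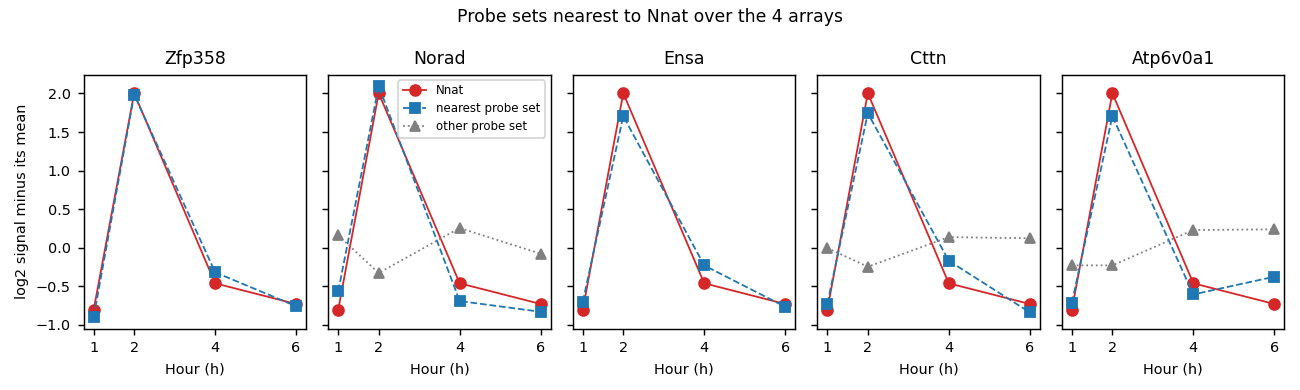
log2 signal minus its mean over the 4 arrays against hour, for Nnat (red), the nearest probe set of each of 5 genes (blue) and, where there is one, that gene's other probe set (grey). The blue points peak at 2 h with the red ones, while the 3 grey profiles have no peak at 2 h.

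The 2 h array differed from the others in quality values as well. The control gene Gapdh had a 3′ over 5′ signal ratio of 1.08 at 2 h, against 4.10, 3.62 and 3.95 at 1, 4 and 6 h. Pyruvate carboxylase had a ratio of 2.43, against 4.60, 4.70 and 5.15, and beta-actin one of 1.72, against 2.27, 2.59 and 2.93. The ratio of ribosomal RNA was highest at 2 h, with 6.41, against 4.85, 3.34 and 6.11. The 9 spike-in probe sets gave 0.715 times their mean at 2 h, against 1.13, 1.14 and 1.02 times. No source used here gives the place of the Nnat probes along the transcript, and the part of these quality values in its 2 h signal was not tested.

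Of 13 lists of cell type markers, 6 had their highest summed signal at 2 h and 4 their lowest. Of single tested probe sets 29.1% were highest and 32.0% lowest at 2 h, shares that sums over several genes need not follow. The CA3 list, among the 6, had 1 measured marker. The CA1 pyramidal list was among the lowest, with 3309 at 2 h, against 4076.5, 4175 and 3974 on the 1, 4 and 6 h arrays, and the microglial list among the highest, with 4306, against 3520, 3279.5 and 3645. Of 10 choroid plexus and ependyma markers 7 were measured, 3 of them at or above 116.4 on all arrays, and their signals at 2 h summed to 2457, against 1298, 1224 and 1598 at 1, 4 and 6 h. Ttr, the most abundant choroid plexus transcript, had 892 at 2 h, against 222, 108 and 356, and Igfbp2 had 711, against 317, 332 and 350. These 2 of the 7 were at least 2-fold higher, against 4.59% of all tested probe sets and 6.2% with no filter on dim ones. Of the other 5, 3 were higher and 2 lower at 2 h, among them Kl with 177.5, against 309, 183 and 270.5. Folr1, Aqp1 and Cldn1, among these 5, averaged 84.0, 47.6 and 80.4 and were too dim to test. No measured marker of this list was under the floor on all arrays. Of 7 neuronal markers 5 were higher at 2 h, beside 48.2% of all genes on their brightest tested probe sets. At least 2-fold higher were 3 of the 7, beside 4.59% of all tested probe sets and 6.2% with no filter on dim ones. The 3 were Nefm, Syt1 with 3671, against 722, 1024 and 1016, and Camk2a with 351, against 41.0, 195 and 43.3. Camk2a was thus under 116.4 at 1 and 6 h, and its mean on the log scale fell short of the limit for testing. Snap25 and Thy1, the brightest of the 7, were lower, with log2 differences of -0.10 and -0.18. The summed neuronal signal was 43458, against 40401, 41338 and 41082. Hypothalamic markers, of which 4 of 6 were measured and 1 was at or above 116.4 on all arrays, summed to 788 at 2 h, against 537, 1024 and 709. The part of these cells in the Nnat signal was not tested.

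**Figure D4:**
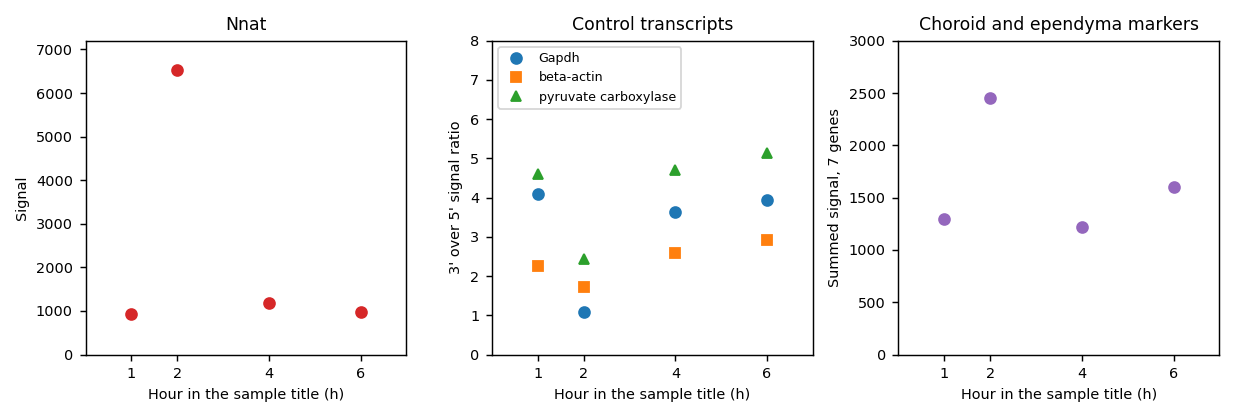
Values by hour, 1 point per array: the signal of Nnat, the 3′ over 5′ signal ratio of 3 control transcripts, and the summed signal of 7 choroid plexus and ependyma markers. At 2 h Nnat stands at 6529, the Gapdh ratio at 1.08 and the marker sum at 2457.

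Other imprinted genes were drawn from a list of 54, of which 31 had a named probe set and 19 were expressed and tested. The list holds genes described as imprinted in any mouse tissue, and whether they are imprinted in CA1 was not measured. On their brightest tested probe sets 13 genes were higher at 2 h and 6 lower, against 48.2% of all genes higher, with a median log2 difference of 0.14 beside -0.02 over all 5546 genes. None was at least 2-fold higher, against 3.79% of all genes, and 1 was at least 2-fold lower, against 2.31%. The lower one was Rasgrf1, a calcium-activated exchange factor for Ras in neurons, with 1657 at 2 h, against 3495, 3071 and 3537.5 at 1, 4 and 6 h. Meg3, a noncoding RNA, had 947 at 2 h, against 468, 554 and 372, on its dimmer probe set, but 819, against 808.5, 749 and 674, on its brighter one. The next differences were those of Commd1, a copper-handling protein (-0.70), H13, a signal peptide peptidase (0.67), and Ddc, which makes dopamine and serotonin (-0.62). The other probe set of H13 was under the floor on 3 arrays and was not tested. By limma 0 of the 20 tested probe sets had a slope past an adjusted p of 0.05, and 0 had an unadjusted p under 0.05.

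**Figure D5:**
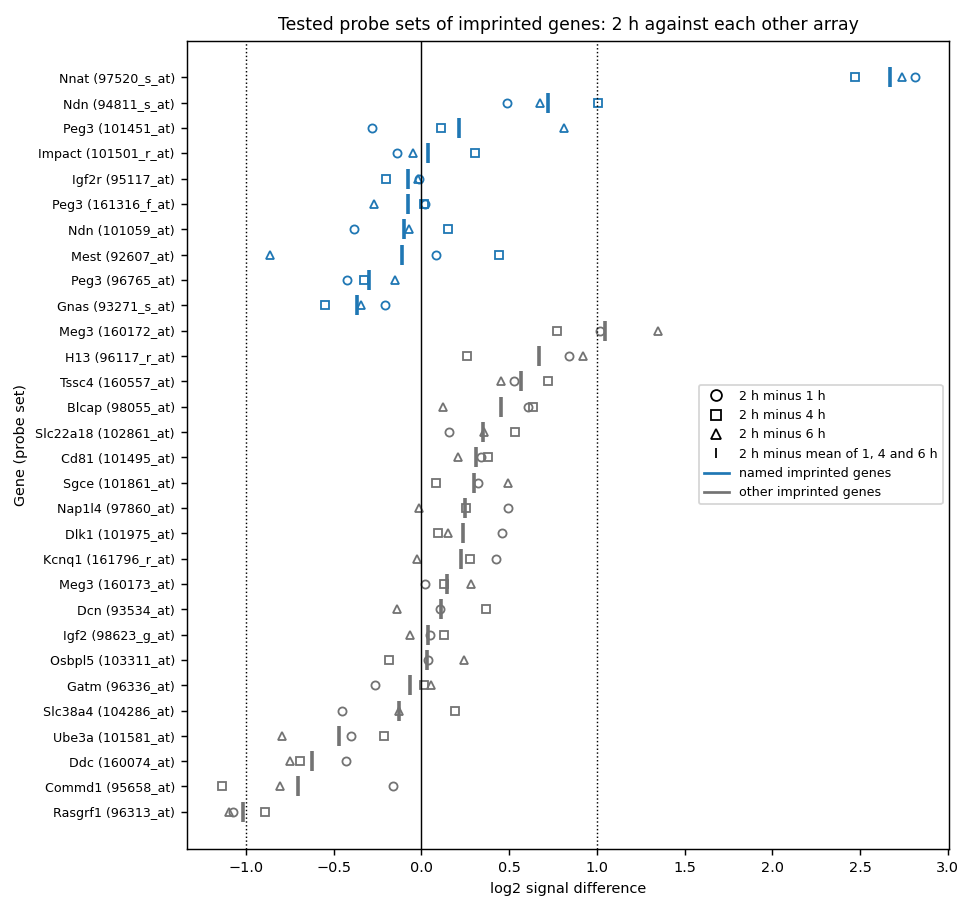
log2 signal difference of the 2 h array from the 1 h array (circles), the 4 h array (squares), the 6 h array (triangles) and their mean (bars) for the tested probe sets of imprinted genes. Nnat stands apart at 2.67, and the remaining bars lie between -1.02 for Rasgrf1 and 1.05 for the dimmer probe set of Meg3.

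Among a short list of neighbours of the members in their imprinted clusters, no tested one was 2-fold higher at 2 h, against 3.79% of all genes. With so few tested, that count does not set the neighbours apart. Blcap, which spans Nnat in the RefSeq annotation and encodes a small membrane protein, had 1139 at 2 h, against 748, 733 and 1047.5 at 1, 4 and 6 h. It was the highest at 2 h, but only 1.09-fold above the 6 h array. Near Ndn and Snrpn, the ubiquitin ligase gene Ube3a had 285 at 2 h, against 377, 331 and 495, while Magel2 was under the floor on all arrays and Mkrn3 reached 73.8 at most. Near Cdkn1c, the growth factor gene Igf2 had 1356 at 2 h, against 1310, 1243 and 1418, on its bright probe set, but its other one was under the floor on 3 arrays. The channel gene Kcnq1 had 507 at 2 h, against 379, 418.5 and 517, on its bright probe set. Its other one was under the floor on 3 arrays. Slc22a18 had 172, against 154, 118.5 and 134, and Phlda2 was not tested. Tssc4 of the same cluster, named after its values were seen, had 1134 at 2 h, against 786, 686.5 and 829.5. That was a 1.48-fold difference from the mean of the others. It was larger than those of Cd81 (1.24-fold), Nap1l4 (1.19-fold, with 6 h the highest) and Osbpl5 (1.02-fold) of that cluster, which were also not on the short list. A second probe set of Nap1l4 was too dim to test. Ddc, near Grb10, had 157 at 2 h, against 212, 254 and 264.5, and Usp29 near Peg3 and Slc22a2 near Igf2r were too dim to test. Igf2 and the matrix gene Dcn are known in the adult brain from meninges and vessels, and the 8 meningeal markers summed to 10964 at 2 h, against 8788, 9163 and 10672. Ptgds alone made up 7454 of the 2 h sum, 4 of the 8 were higher at 2 h and 4 lower, and their median log2 difference was 0.03. The part of those cells in the signals of Igf2 and Dcn was not tested.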

How the data were processed

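Total RNA from CA1 of 4 control samples was measured on 1 array each, grouped by the hour in the title. The deposited values are 1 linear signal intensity per probe set and array. No source used here names the software that made them, and no detection calls were used. The mean of each array after removing 2% at each end was 499.9 and differed by 0.002% at most, so the authors' intensities were used as deposited.

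Values under the pooled 20th percentile, 36.8, were raised to it before taking log2. The 7237 of 12422 non-control probe sets with a mean log2 at or above the pooled 40th percentile, 116.4, were tested. Symbols came from the platform annotation, updated by gene identifier for 10817 of 10833 probe sets with 1 symbol. Another 396 had several symbols and 1193 none, and these are not named. Each gene is represented by its brightest tested probe set unless stated. The 2 h array was set against the mean log2 of the other 3 with no test, at a threshold of 2-fold. Slopes used limma 3.58.1 (R 4.3.3) with a mean-dependent prior and were tested on simulated data. Python 3.11.15, pandas 2.3.3 and matplotlib 3.10.9 were also used.

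Named were the members, a list of their neighbours, the 5 other imprinted genes with the largest 2 h difference on any tested probe set, and the 5 genes nearest to Nnat. Members and lists were chosen with earlier results of these data known. P-values measure only the spread between these 4 arrays, whose number limits every value.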

Additional observations from a re-analysis of the deposited data

How the results depend on the processing

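Nnat kept a log2 difference at 2 h of 2.69 under quantile normalization and 2.62 under median centring. Against each other array alone the difference ran between 2.47 and 2.81. Other floors (10th or 30th percentile) and filters lay under all signals of Nnat, so they could not change its value. The count of member probe sets at least 2-fold higher at 2 h was 1 and became 2, by adding the dimmer one of Ndn, against the 4 h array alone or with a 1.5-fold threshold. With the tested probe sets of a gene averaged, Ndn had 0.31 in place of -0.10 and Peg3 -0.06 in place of -0.30. For other imprinted genes, the count higher was 1 (Meg3) and became 0 after median centring, and the count lower was 1 and became 3 without the filter, by adding the dim Slc22a2 and a dim probe set of Nap1l4. Of all tested probe sets, 332 were past 2-fold above the other arrays at 2 h, 142 with a filter at the 60th percentile and 770 with none. The count of expressed member probe sets was 9, and stayed 9 under quantile normalization and under median centring. The other floors lay under the limit of 116.4 for expression, so they could not change this count. That limit itself was not varied for this count.

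The limma slope test called 0 member probe sets under every alternative and with each array left out, the lowest adjusted p being 0.0786 for the middle probe set of Peg3 without the 2 h array. Over all tested probe sets the test called 32 of 7237 without the 2 h array and 0 under each other setting, as in the fit of all 4 arrays. Slopes of members changed sign in 5 cases, none called, and came to 0.0 in 2 others: that of Gnas after quantile normalization, because its probe set held the same rank on every array. Leaving out 1 array moved the slopes between -0.684 and 0.023 for Nnat, between -0.164 and 0.018 for the brighter probe set of Ndn, between -0.149 and 0.013 for Impact and between -0.134 and 0.216 for Mest. For Peg3 they moved between -0.053 and 0.038 on the brightest and between 0.0 and 0.068 on the dimmest probe set. No paired analysis was possible because each hour has 1 array. With 1 array an hour, no value at 2 h can be separated from that array.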
